A study of Ailuropoda melanoleuca with 25 samples.

Results

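In giant panda (Ailuropoda melanoleuca) cells on the way from primary fibroblasts to induced pluripotent stem cells, 90 of 22924 gene models stood lower in both libraries treated with A83-01 than in both day 16 control libraries, and these 90 models are described here. A model belongs to the set if its level reached at least 10 CPM (estimated counts scaled to library totals of 1e+06) in both control libraries and if each A83-01 library stood at no more than 1/3 of the lower control. Of the 8915 models that reached this level in both controls, 1.01% met the rule. The rule used the control and A83-01 libraries at day 16, so their values, and the calls between them, are given as a description. Results are read only from tests of comparisons without these 4 libraries.

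The 25 RNA-seq libraries fall into 12 groups, each with 2 libraries except LB GPiPSCs with 3. GPiPSCs are giant panda induced pluripotent stem cells made with non-integrating episomal vectors, and PF are the primary fibroblasts named as the source of every sample. The groups are LB PF, XR PF, stage I day 8, stage I day 24, control day 16, A83-01 day 16, stage II day 8, LB GPiPSCs, XR GPiPSCs, BACL LB GPiPSCs, BACL control and BACL-CHIR99021. The labels give no dose or time of exposure for A83-01 or CHIR99021, assign the day 16 libraries to neither stage, and do not spell out LB, XR or BACL. The titles of the stage I, stage II and day 16 libraries name neither LB nor XR. Where these groups are compared with PF or GPiPSCs, a difference between LB and XR cannot be told apart from the step.

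A83-01 is a small molecule that inhibits the kinase activity of type I receptors for TGF-β, activin and nodal. These receptors act through SMAD proteins, and in fibroblasts TGF-β is known for driving extracellular matrix and contractile genes and for opposing the shift from a mesenchymal to an epithelial state that accompanies reprogramming. CHIR99021 inhibits glycogen synthase kinase and so stabilises β-catenin, the effector of canonical Wnt signalling. The files name gene models by an assembly identifier (evm.model, scaffold, number) and do not pair these with gene symbols, so no member can be named as a TGF-β target, matrix gene or cell type marker, and the fibroblast and pluripotent labels could not be checked against their defining genes. Members are therefore described by their behaviour, with a few identifiers as examples.

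Totals ran from 8627983 to 14890260 estimated counts per library, at which 3 counts correspond to 0.201 to 0.348 CPM. The 2 control day 16 libraries lay close to each other (chi-square of 2.32 per degree of freedom across models), the 2 A83-01 libraries further apart (29.4), and LB PF (118), XR PF (119) and stage I day 24 (116) furthest. Closest were BACL LB GPiPSCs (1.2), BACL-CHIR99021 (1.54) and BACL control (1.61). The labels do not say whether replicates came from separate cultures. The p-values therefore cover the spread among these libraries alone, and that spread may be technical. They rest on an estimate of spread shared by all 12 groups, not on the spread of the groups compared. Groups that spread widely and groups that lie close are thus treated alike. In bulk RNA, fewer cells of a type and less RNA per cell cannot be told apart.

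The members covered a wide range of levels in the controls, from 10.1 to 14733 CPM in the lower control library, with a median of 32.9. The higher A83-01 library stood at a median of 21.7% of the lower control. It was above 20% in 53 members, between 10% and 20% in 22, and at 10% or less in 15. The 2 control libraries differed by more than 2-fold in 0 members and the 2 A83-01 libraries in 9, so in those 9 the size of the reduction is less certain. Replicate 1 of A83-01 was the lower one in 35 members and replicate 2 in 55. After TMM scaling, which adjusts library sizes for RNA composition, replicate 1 was the lower one in 51. For single replicates the rule alone would have taken 110 models with replicate 1 and 134 with replicate 2. At the limit of 1/3, the 2 members just inside stood at 33.1% and 33.2% of the lower control and the 2 models just outside at 33.4% and 34.0%. At the CPM limit, the lowest member stood at 10.1 and 12.8 CPM in the controls, and the nearest model below the limit at 9.81 and 10.3.

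**Figure D1:**
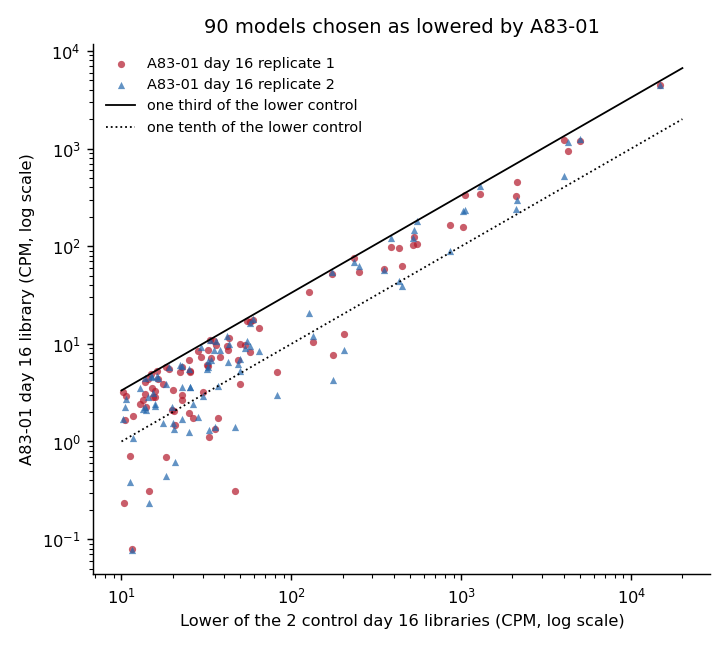
Level of the 90 members in each A83-01 day 16 library (vertical, CPM, log scale) against the lower control day 16 library (horizontal, CPM, log scale), with lines at 1/3 (solid) and 1/10 (dotted) of the control. The rule places all points below the solid line, 15 members have both libraries at or below the dotted line, and 1 library at 0 counts is not drawn.

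The log2 fold change of A83-01 against control ran from -7.28 to -1.74 over the members, with a median of -2.66, where edgeR gave a median of 0.04 over the 17225 models tested. All 90 members passed the filter on low counts. Of these, 85 were called lower at an adjusted p under 0.05 (edgeR quasi-likelihood test), where 2.04% of all tested models and 2.65% of the 8915 were. The same libraries chose the members, so a count far above these shares was preset by the rule. It is a description, not a test of the members, and nothing is read from it. The deepest reductions with at least 10 counts left were in evm.model.HIC_ASM_2.1106 and evm.model.ORI_1550.3. The former stood at 46.5 and 47.7 CPM in the controls and at 0.314 and 1.39 CPM under A83-01, so both treated libraries kept 2.996% of the lower control or less. The latter stood at 3.84% of the lower control or less, with TMM-scaled CPM of 22.4 and 20.1 in the controls and 0.657 and 0.494 under A83-01. The members with the most counts in the controls, unadjusted for length, were evm.model.HIC_ASM_13.784 and evm.model.HIC_ASM_7.36. On the TMM-scaled CPM that is used for all levels from here on, evm.model.HIC_ASM_13.784 stood at 17059 and 16272 in the controls and at 4174 and 4753 under A83-01. For evm.model.HIC_ASM_7.36 the values were 5479 and 5904 against 1119 and 1322. Together the members held 4.42% and 4.38% of all counts in the controls and 1.09% and 1.02% under A83-01. Without evm.model.HIC_ASM_13.784 these shares were 2.86%, 2.90%, 0.640% and 0.569%.

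Across the other groups the members were highest at stage I day 8 and lowest in the GPiPSC and BACL libraries without CHIR99021. The median over the 90 members was 49.6 CPM in both stage I day 8 libraries, 38.8 and 38.02 in the controls, and 5.62 and 6.02 under A83-01. In LB PF it was 5.70 and 4.49, in XR PF 13.9 and 16.7, with 8.54 and 9.46 at stage I day 24, and 13.5 and 11.1 at stage II day 8. In the 5 libraries of LB and XR GPiPSCs it lay between 0.491 and 0.842 CPM, and in the 4 libraries of BACL LB GPiPSCs and BACL control between 0.373 and 0.436. In BACL-CHIR99021 it was 1.90 and 2.14, above all 9 of those libraries. Over the same 25 libraries the median of the 8915 models that passed the control minimum stayed between 33.0 and 45.2 CPM. Among the 10 groups outside the rule, stage I day 8 held the highest mean for 56 members (62.2%, against 19.6% of the 8915 models), XR PF for 19 (21.1% against 10.8%), and LB and XR GPiPSCs for 0 and 1.

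**Figure D2:**
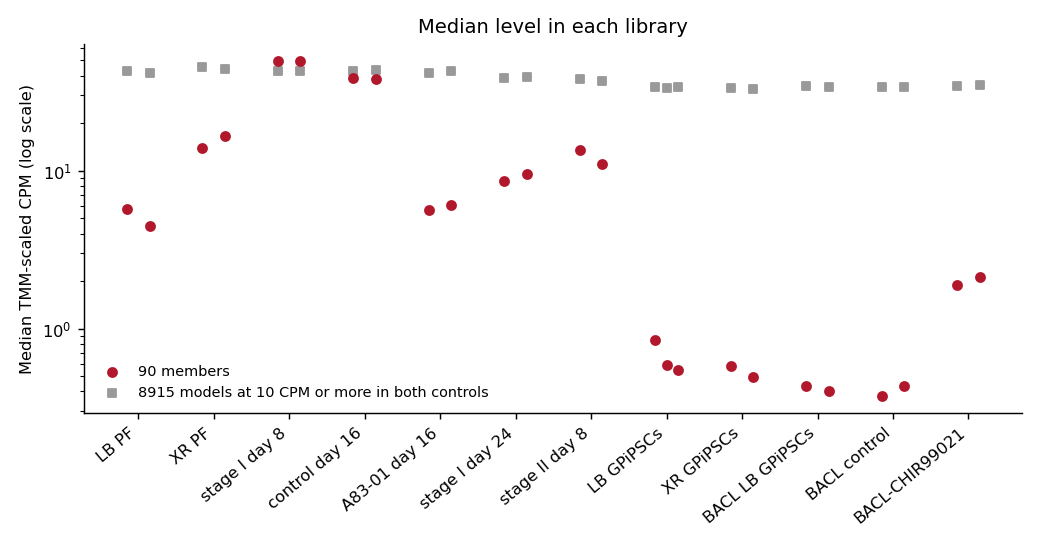
Median TMM-scaled CPM (log scale) in each library, by group, for the 90 members (circles) and for the 8915 models at 10 CPM or more in both controls (squares). The members' median is near 49.6 CPM at stage I day 8 and below 1 CPM in all libraries of LB GPiPSCs, XR GPiPSCs, BACL LB GPiPSCs and BACL control, while the squares stay between 33.0 and 45.2 CPM.

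Compared with stage I day 8, the controls were over 2-fold higher in 27 members, within 2-fold in 33 and under 1/2 of the day 8 level in 30. Both A83-01 libraries lay below both stage I day 8 libraries in 76 members, above both in 6, and overlapped with them in 8. In 34 members the control day 16 group held the highest mean of the 12 groups. All these counts include the libraries that chose the members and are a description only. They were not made over the models that passed the control minimum. The rule itself favours high controls and low A83-01 libraries, so its part in these counts cannot be told.

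Stage I day 8 was then compared with PF (the mean of LB PF and XR PF on the log2 scale), to see whether the members were already high in fibroblasts. Whether the stage I day 8 libraries came from LB or XR is not given, so part of a difference from this mean may lie between LB and XR. At stage I day 8, 69 of 90 members were higher than in PF and 3 lower, where 26.0% and 25.6% of all tested models and 29.2% and 30.1% of the 8915 models were. The members' median log2 fold change was 2.86, against -0.02 in the 8915 models and 0.00 in all models. The member evm.model.HIC_ASM_7.35 stood at 0.410 and 0.364 CPM in the LB fibroblasts, at 0.566 and 0.557 in the XR fibroblasts, and at 464 and 518 at stage I day 8 (log2 fold change 10.005 ± 0.277 SE, edgeR adjusted p = 1.09e-14). Its neighbour in number, evm.model.HIC_ASM_7.36, stood at 0.820 and 0.364 CPM in LB, at 1.05 and 0.279 in XR, and at 351 and 443 at stage I day 8 (9.23 ± 0.40, edgeR adjusted p = 7.85e-12). All day 8 libraries were far above all PF libraries in both. The 3 members that fell were evm.model.HIC_ASM_19.77, evm.model.HIC_ASM_4.1793 and, named after its values were seen, evm.model.HIC_ASM_4.634. For evm.model.HIC_ASM_19.77 the levels were 981 and 386 CPM in LB fibroblasts, 4972 and 903 in XR fibroblasts, and 73.1 and 153 at day 8 (-3.65 ± 0.70, edgeR adjusted p = 0.000388). The PF libraries of this model spread widely but none reached down to day 8. The other 2 fell less, by 1.52 ± 0.32 and 1.18 on the log2 scale (edgeR adjusted p = 0.000762 and 0.0163), and evm.model.HIC_ASM_4.634 overlapped between the groups. With 1 library left out at a time, 60 to 72 members were higher and 2 to 5 lower.

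Between day 8 and day 24 of stage I the members mostly declined. At day 24, 67 of 90 were lower than at day 8 and 1 was higher, where 13.9% and 18.6% of all tested models and 19.1% and 12.5% of the 8915 were. The median log2 fold change was -2.19, against -0.04 in the 8915 models and 0.15 in all models. The member evm.model.HIC_ASM_8.405 stood at 203 and 418 CPM at day 8 and at 0.527 and 0.860 at day 24 (-8.75 ± 0.63 SE, edgeR adjusted p = 6.69e-08). At day 16 the same model was at 92.3 and 90.4 CPM in the controls and at 4.82 and 3.21 under A83-01, and it was at 0.246 CPM in LB PF replicate 1 and at 0 in the other 3 PF libraries. The member evm.model.HIC_ASM_4.615 stood at 3366 and 3029 CPM at day 8 and at 16.8 and 8.75 at day 24 (-7.98 ± 0.88, edgeR adjusted p = 1.49e-06), with 218 and 194 in the day 16 controls and 7.08 and 4.53 under A83-01. The member that rose was evm.model.HIC_ASM_12.1153, from 90.5 and 74.4 to 533 and 671 CPM (2.87 ± 0.56, edgeR adjusted p = 0.000565). Leaving out 1 library at a time gave 58 to 66 lower and 1 higher.

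The 94 models that A83-01 raised under the mirrored rule (at least 10 CPM in both A83-01 libraries, each control at no more than 1/3 of the lower A83-01 library) ran the other way in this step. Of these, 76 were higher and 7 lower at day 24 than at day 8, and their median log2 fold change was 3.59. Against PF at day 8 they were divided, with 29 higher and 28 lower. No test compared the 2 lists, and the mirrored list was chosen from the same 4 libraries.

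Between stage I day 24 and stage II day 8 the members were divided, with 23 higher and 26 lower, where 12.7% and 19.0% of all tested models and 15.6% and 21.7% of the 8915 were. Their median log2 fold change was 0.00, against -0.05 in the 8915. Among called members with 10 counts or more in the lower group, a mean of 10 CPM or more in the higher one and no overlap between libraries, the largest rises were in evm.model.HIC_ASM_4.615, which went from the day 24 levels above to 1570 and 1993 CPM (7.13 ± 0.85 SE, edgeR adjusted p = 1.02e-05), and in evm.model.HIC_ASM_7.203, which went from 53.2 and 20.6 to 3455 and 4202 CPM (6.70 ± 0.49, edgeR adjusted p = 3.79e-08). Both stayed somewhat below their stage I day 8 levels, which for evm.model.HIC_ASM_7.203 were 5964 and 5025 CPM. Under the same limits the largest drops were in evm.model.HIC_ASM_16.275, from 17.3 and 21.6 to 0.792 and 0.542 CPM (-4.84 ± 0.60, edgeR adjusted p = 7.71e-05), and in evm.model.HIC_ASM_7.35, from 363 and 381 to 20.6 and 14.8 CPM (-4.39 ± 0.27, edgeR adjusted p = 6.37e-09). The split depended on scaling and on single libraries. Without TMM factors 14 members were higher and 26 lower. Without either stage II day 8 library 15 were higher, and 16 were lower without stage I day 24 replicate 2 or stage II day 8 replicate 2.

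In established GPiPSCs most members were low. Against stage II day 8, 70 members were lower in GPiPSCs (the mean of LB and XR on the log2 scale) and 4 higher, where 36.3% and 31.0% of all tested models and 47.3% and 30.1% of the 8915 were. The median log2 fold change was -3.70 against -0.43 in the 8915. The member with the most counts in the controls, evm.model.HIC_ASM_13.784, went from 15626 and 20076 CPM at stage II day 8 to between 0.0644 and 0.972 in the 5 GPiPSC libraries (-16.26 ± 0.58 SE, edgeR adjusted p = 5.74e-13). For evm.model.HIC_ASM_4.615 the change was -11.18 ± 0.72 (edgeR adjusted p = 5.35e-10), with at most 1.43 CPM in any GPiPSC library. The 4 that rose were evm.model.HIC_ASM_0.1009 (2.56 ± 0.46, edgeR adjusted p = 8.39e-05), evm.model.HIC_ASM_7.549 (0.97 ± 0.35, edgeR adjusted p = 0.0201) and, named after their values were seen, evm.model.HIC_ASM_2.548 and evm.model.HIC_ASM_12.56, whose libraries overlapped between the groups. Without stage II day 8 replicate 1 only 1 of the 4 was called and without replicate 2 only 2.

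Against the fibroblasts of the same label, 51 members were lower and 9 higher in LB GPiPSCs, where 28.9% and 28.5% of all tested models and 36.6% and 21.6% of the 8915 were. In XR GPiPSCs 61 were lower and 7 higher, where the shares were 28.9% and 27.0% of all tested models and 38.1% and 17.1% of the 8915. The members' median log2 fold changes were -2.61 in LB and -3.74 in XR, against -0.26 and -0.35 in the 8915. These comparisons share no library. Lower in both were 48 members, where 21.2% of all tested models and 28.7% of the 8915 were, and 5 were higher in both, where 19.8% and 12% were. In the mirrored list of 94 models, 10 were lower in both and 59 higher in both. Leaving out LB GPiPSCs replicate 3 gave 50 lower and 9 higher in LB, and 48 and 5 in both. Leaving out some other libraries moved the counts of lower members in LB and in both further than this. In XR, each library left out reduced the count of lower members.

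Among the members that fell in LB, evm.model.HIC_ASM_19.77 went from 981 and 386 CPM in LB PF to 1.23, 0.498 and 0.257 (-9.996 ± 0.853 SE, edgeR adjusted p = 1.07e-08), and evm.model.HIC_ASM_13.784 from 20741 and 5849 CPM to below 1 CPM (-14.70 ± 0.64, edgeR adjusted p = 4.10e-12). In XR, evm.model.HIC_ASM_19.77 changed by -11.41 ± 1.06 and evm.model.HIC_ASM_4.615 by -10.63 ± 1.00 (edgeR adjusted p = 4.15e-08 and 5.18e-08). The latter stood at 1238 and 2173 CPM in XR PF and at 1.22 and 0.921 in XR GPiPSCs. Among the 5 that rose in both, evm.model.HIC_ASM_7.549 stood at 3.28 and 0.364 CPM in LB PF and at 53.8, 104 and 75.7 in LB GPiPSCs (5.30 ± 0.49, edgeR adjusted p = 3.31e-08), and at 3.23 and 4.83 in XR PF and 97.9 and 85.0 in XR GPiPSCs (4.51 ± 0.47, edgeR adjusted p = 2.08e-07). The groups did not overlap. For evm.model.HIC_ASM_0.1009 the changes were 2.41 ± 0.47 in LB and 1.87 ± 0.48 in XR (edgeR adjusted p = 0.000213 and 0.00259). With only the groups compared in the fit, the XR change of this model was not called (edgeR adjusted p = 0.0673). The other 3, named after their values were seen, were evm.model.HIC_ASM_1.1932, evm.model.HIC_ASM_1.1798 and evm.model.HIC_ASM_2.548. Of these, evm.model.HIC_ASM_1.1932 stood at 0 CPM in all PF libraries and at 3.82, 1.18 and 0.578 in LB GPiPSCs. In XR GPiPSCs it stood at only 0.451 and 0.491 CPM, so its rise there rests on few counts. One member, evm.model.HIC_ASM_13.1624, named after its values were seen, was higher in LB and lower in XR.

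**Figure D3:**
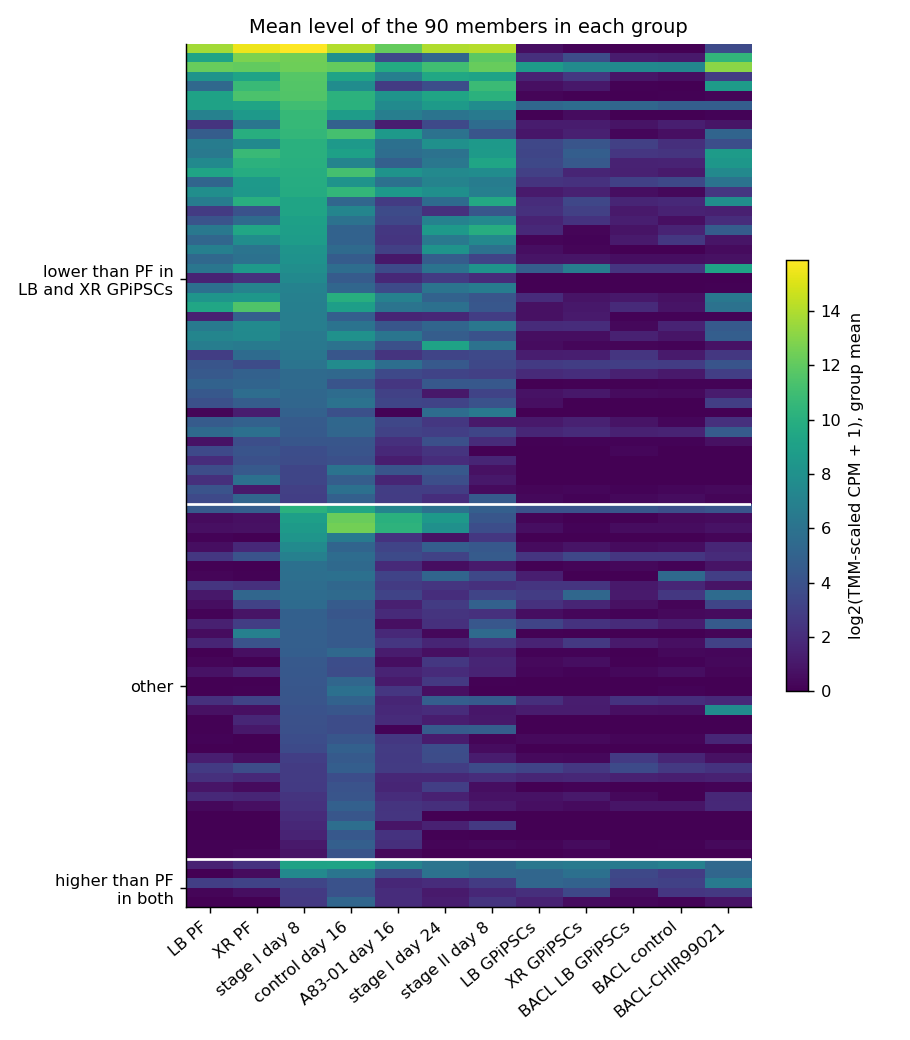
Mean level of each member (rows) in each group (columns) as log2(TMM-scaled CPM + 1), with rows divided into the 48 members lower than PF in both LB and XR GPiPSCs, 37 others and 5 higher in both, and ordered by stage I day 8 level within each block. The columns of LB GPiPSCs, XR GPiPSCs, BACL LB GPiPSCs and BACL control are dark for most rows, and the BACL-CHIR99021 column regains colour in part of the upper block.

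The difference between the LB and XR changes was tested directly. In 15 members the log2 change was higher in LB (a smaller fall or a larger rise) and in 1 it was lower, where 5.56% and 3.09% of all tested models and 7.02% and 2.89% of the 8915 were. The median difference over the members was 0.95 against 0.10 in the 8915. In the mirrored list of 94 models, 12 had a higher and 5 a lower LB change. For evm.model.HIC_ASM_8.656 the difference was 4.52 ± 0.54 (SE, edgeR adjusted p = 7.68e-05). This model stood at 26.2 and 23.0 CPM in LB PF but at 1200 and 773 in XR PF, and at 0.713 to 1.84 in all 5 GPiPSC libraries, so LB and XR differed at the fibroblast end. For evm.model.HIC_ASM_4.615 the difference was 4.40 ± 1.19 (edgeR adjusted p = 0.0279), with 70.4 and 10.1 CPM in LB PF. Without LB GPiPSCs replicate 1 it was 2.00 and was not called (edgeR adjusted p = 0.582), nor was it called without XR PF replicate 2 (0.0817) or either XR GPiPSCs library (0.0912 and 0.0979), nor with only the groups compared in the fit (0.217). The 1 member with a lower LB change, named after its values were seen, was evm.model.HIC_ASM_13.969, with 12.2 and 19.3 CPM in LB PF against 1.05 and 1.21 in XR PF. The count of 15 was 27 without LB PF replicate 1 and 16 without LB GPiPSCs replicate 3.

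In the BACL LB GPiPSCs, for which the labels do not explain BACL, most members were not called changed from their low level in LB GPiPSCs. In BACL LB GPiPSCs 16 members were lower and 3 higher than in LB GPiPSCs, where 7.70% and 1.79% of all tested models and 6.33% and 1.93% of the 8915 were. The mirrored list had 22 of 94 lower and 2 higher, so a share of lower calls above that of the 8915 was not particular to the members. In both BACL LB GPiPSCs libraries 5 members reached 10 CPM or more, a count not made over the 8915 models. Among those that fell were evm.model.HIC_ASM_12.410, from 19.2, 29.9 and 24.7 to 3.99 and 4.84 CPM (-2.48 ± 0.35 SE, edgeR adjusted p = 0.000173), and evm.model.HIC_ASM_0.1009, from 36.9, 42.0 and 31.6 to 8.60 CPM in both (-2.10 ± 0.45, edgeR adjusted p = 0.00538). The count of 16 was 5 without BACL LB GPiPSCs replicate 1 and 7 without replicate 2. In evm.model.HIC_ASM_0.1009 the call was lost without either of them (edgeR adjusted p = 0.0964 and 0.0953). The 3 that were higher, named after their values were seen, were evm.model.HIC_ASM_12.632, evm.model.HIC_ASM_5.307 and evm.model.HIC_ASM_16.341, none above 6.23 CPM in BACL LB GPiPSCs.

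Of the GPiPSC and BACL groups, BACL-CHIR99021 held the members at the highest median. In BACL-CHIR99021, 40 of 90 members were higher than in BACL control and 3 lower, where 11.7% and 4.43% of all tested models and 11.7% and 4.37% of the 8915 were. Their median log2 fold change was 2.06, against -0.02 in the 8915. The median over the mirrored list was 0.10, with 20 of 94 higher and 11 lower. With only the groups compared in the fit, 41 members were higher and 8 lower, where 5443 and 5166 of all tested models were. The share of members called higher therefore stood out less in that fit. The member evm.model.HIC_ASM_7.203 stood at 1.24 and 1.06 CPM in BACL control and at 1384 and 1365 in BACL-CHIR99021 (10.21 ± 0.59 SE, edgeR adjusted p = 2.97e-09), and evm.model.HIC_ASM_8.1083 at 0.373 and 0.683 against 221 and 207 CPM (8.64 ± 0.52, edgeR adjusted p = 3.84e-09). In PF the former stood at 691 and 496 CPM in LB and at 4444 and 9035 in XR, whereas the latter stayed below 1 CPM in all 4 PF libraries. The 3 that fell were evm.model.HIC_ASM_13.1634 (-2.68 ± 0.66, edgeR adjusted p = 0.00868), evm.model.HIC_ASM_7.549 (-1.57 ± 0.40, edgeR adjusted p = 0.0103) and, named after its values were seen, evm.model.HIC_ASM_16.341. None of the 3 was called when either BACL-CHIR99021 library was left out, and evm.model.HIC_ASM_7.549 was not called without BACL control replicate 1 (edgeR adjusted p = 0.0550), while 32 to 36 were higher with 1 library left out. In both BACL-CHIR99021 libraries 26 members reached 10 CPM or more, against 5 in both BACL control libraries, counts not made over the 8915 models.

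**Figure D4:**
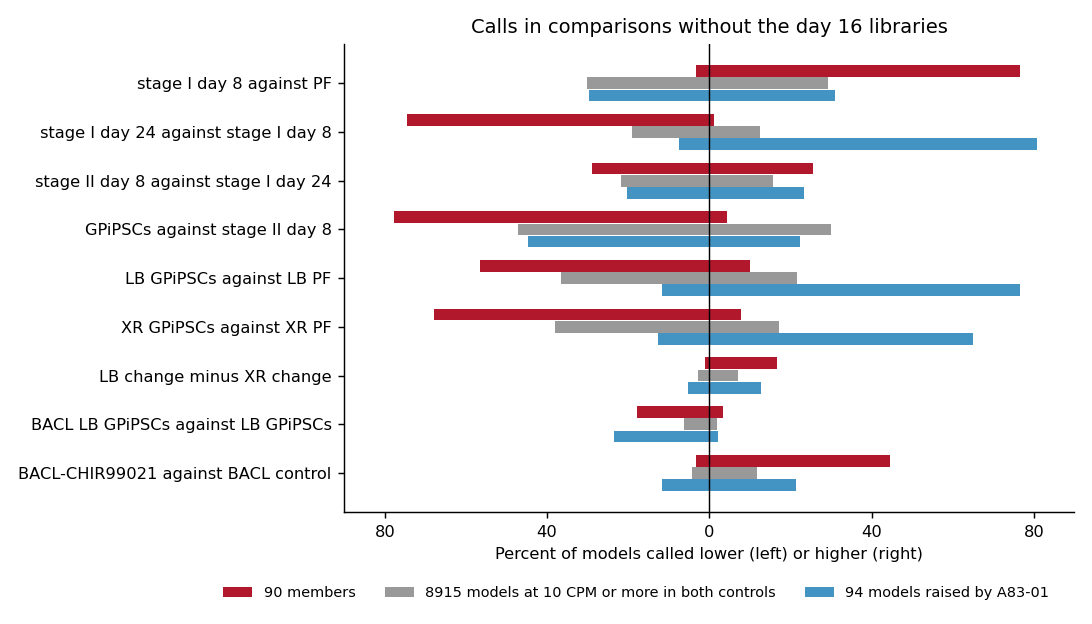
Percent of models called higher (right) or lower (left) at an edgeR adjusted p under 0.05 in 9 comparisons that share no library with the rule, for the 90 members, the 8915 models at 10 CPM or more in both controls, and the 94 models raised by A83-01. The members lie to the right for stage I day 8 against PF (76.7% higher) and for BACL-CHIR99021 (44.4% higher), to the left for stage I day 24 against day 8 and for the GPiPSC comparisons, and on both sides for stage II day 8 against stage I day 24 (25.6% higher, 28.9% lower).

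Members higher in BACL-CHIR99021 were then set against the calls of the earlier steps. Of the 48 members lower in both LB and XR GPiPSCs, 28 were higher in BACL-CHIR99021, which is 58.3% of that list and 70.0% of the 40. Of the 2560 models among the 8915 with the same pattern, 27.0% were higher in BACL-CHIR99021, and they made up 66.1% of the 1046 that rose. Of the 23 members that rose between stage I day 24 and stage II day 8, 14 were higher in BACL-CHIR99021 (60.9% of the 23 and 35.0% of the 40), and of the 26 that fell 8 were (30.8% of the 26), which is 8 of the 40. Among the 8915 models these shares were 12.2% and 16.3% for the rising and 17.3% and 31.9% for the falling models. The comparisons set side by side share no library.

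A subset was low in both the starting and the final cells. Under 1 CPM in all 4 PF libraries were 20 members, under 1 CPM in all 9 libraries of LB GPiPSCs, XR GPiPSCs, BACL LB GPiPSCs and BACL control were 38, and 14 met both conditions, a limit set after the values were seen. These are 22.2%, 42.2% and 15.6% of the members, where 0.965%, 3.53% and 0.404% of the 8915 models met the same limits, which is a description with no test. Of these 14, 13 were at 1 CPM or more in both stage I day 8 libraries, 6 in both stage I day 24 libraries and 5 in both stage II day 8 libraries. Besides evm.model.HIC_ASM_7.35 and evm.model.HIC_ASM_8.405 they include evm.model.HIC_ASM_2.1106, which was at 0 in all 4 PF libraries, at 2.75 and 2.18 CPM at stage I day 8, at 51.0 and 52.7 in the controls and at 0.292 and 1.48 under A83-01. At the other end, 4 members stayed at 10 CPM or more in all 9 of those GPiPSC and BACL libraries, namely evm.model.HIC_ASM_7.549 and, named after their values were seen, evm.model.HIC_ASM_16.2430, evm.model.HIC_ASM_1.708 and evm.model.HIC_ASM_0.715. They are 4.44% of the members, where 73.1% of the 8915 models stayed at that level.

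**Figure D5:**
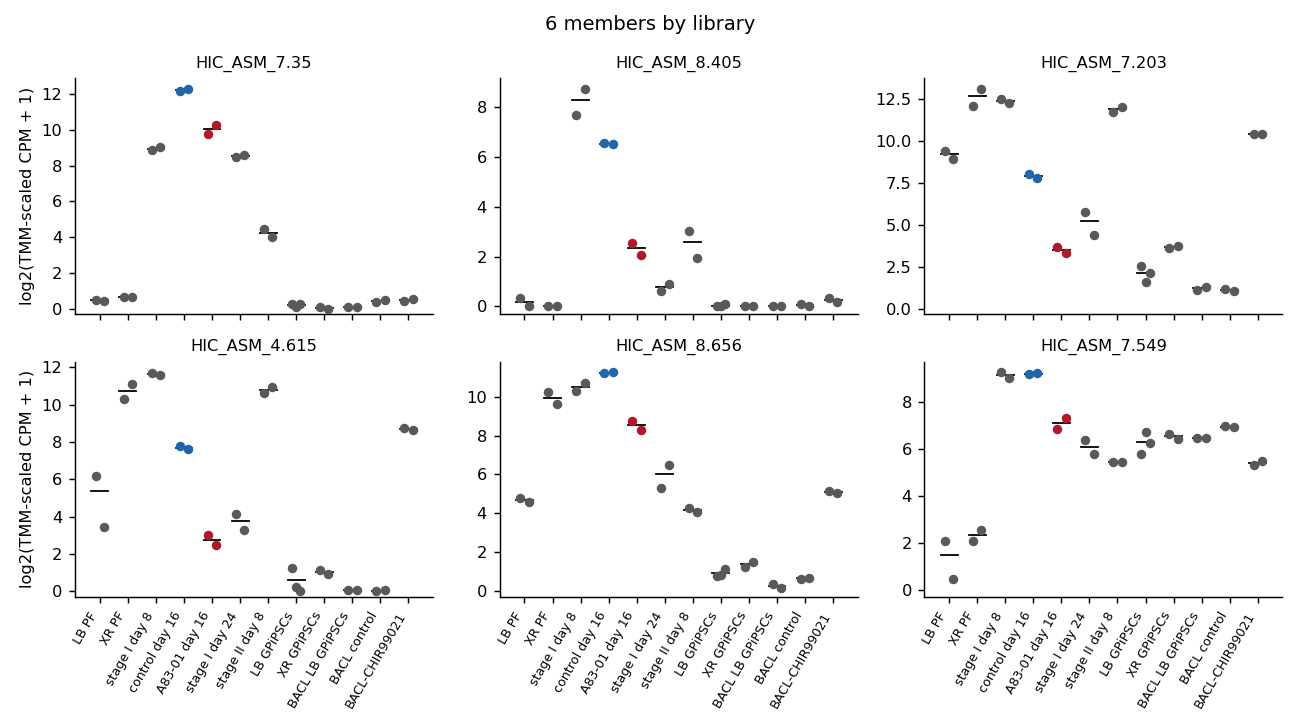
Levels of 6 members in every library as log2(TMM-scaled CPM + 1), by group, with points for libraries, bars for group means, control day 16 in blue and A83-01 day 16 in red. The models HIC_ASM_7.35 and HIC_ASM_8.405 are near 0 in PF and GPiPSCs, HIC_ASM_7.203 and HIC_ASM_4.615 are high again at stage II day 8 and in BACL-CHIR99021, HIC_ASM_8.656 differs between LB PF and XR PF, and HIC_ASM_7.549 stays on in GPiPSCs.

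By position, the members lay on 19 scaffolds, with 11 on HIC_ASM_7 (12.2% of members, against 5.7% of the 8915 models), 8 on HIC_ASM_12 (8.9% against 6.0%) and 7 each on HIC_ASM_13, HIC_ASM_16 and HIC_ASM_8. On 10 occasions 2 consecutive members of a scaffold were within 5 in model number, a count not made for the 8915 models. The pair evm.model.HIC_ASM_7.35 and evm.model.HIC_ASM_7.36 is one of these, with coding lengths of 627 and 1077 bases and log2(CPM + 1) values that correlated at 0.997 over the 25 libraries (Pearson, a description, since the libraries are shared and grouped). Over the 10 pairs this correlation ran from 0.554 to 0.997. Where neighbours are near-identical copies or parts of one gene, their reads could be divided or shared, and the files do not show which. Coding length had a median of 1491 bases over the members and 1374 over the 8915 models, from 381 to 8055 bases.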

How the data were processed

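Per the labels' protocols, 2 μg of RNA per sample went into NEBNext Ultra libraries. Transcripts were quantified with kallisto, per the submitters' processing notes (version, index and genome build not given in the sources used here). The authors deposited, for each library and each of 22924 gene models, an estimated count, which was rounded to whole numbers for the tests, and a TPM value, used for alternatives only, per the file headers. Of the model identifiers 0 occur in the RefSeq table of assembly ASM200744v3, so no symbols, marker lists or sequences could be attached. Each library's group and number follow its title.

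The 25 libraries were fitted together, as 12 groups, with edgeR 4.0.16 in R 4.3.3 (filterByExpr, 17225 models, TMM factors from 0.622 to 1.33, robust quasi-likelihood F test, Benjamini-Hochberg over all models tested, called under 0.05). The day 16 libraries entered this fit and so its shared estimate of spread, but not the contrasts from which results are read. SEs come from the F statistic. The step was tried on counts simulated with a single spread per model, shared by all groups. That trial therefore did not cover groups that differ in spread, as these do. Alternatives were RLE, no scaling factors, DESeq2 1.42.0, no filter, only the groups compared, a replicate block, limma-trend 3.58.1 on log2(TPM + 1), each library left out in turn, and other limits of the rule.

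The members and lists were chosen with earlier results of these data known. Named models follow a rule. Per comparison and direction it takes the 2 called members with the largest change whose libraries do not overlap, with 10 counts or more in the lower group and a mean of 10 CPM or more in the higher one. In the contrast that chose the members it takes the 2 deepest reductions with 10 counts or more left and the 2 members with the most counts in the controls. Names outside it are marked.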

Additional observations from a re-analysis of the deposited data

Results flagged for a closer look

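The change from PF to GPiPSCs differed between LB and XR in 16 members by the test of the difference itself, 15 with a higher and 1 with a lower log2 change in LB. Among those the naming rule takes, the difference was 4.52 in evm.model.HIC_ASM_8.656 and 4.40 in evm.model.HIC_ASM_4.615. The latter was 2.00 and not called without LB GPiPSCs replicate 1 (edgeR adjusted p = 0.582), and it was not called with only the groups compared in the fit (0.217), where the count of 15 was 4. The groups hold 2 or 3 libraries each, too few for a check of single libraries against their group.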

How the results depend on the processing

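Of 264 recomputed counts, 228 stayed within 1.5 times the value reported, and of 377 recomputed fold changes of named members 362 kept their call, 15 lost it and 0 turned direction. Without scaling factors, 6 members were lower at stage I day 8 than in PF, 2 were higher at stage I day 24 than at day 8 and 14 were higher at stage II day 8 than at stage I day 24. DESeq2 gave 2 higher at stage I day 24, 24 with a higher LB change and 5 higher in BACL LB GPiPSCs. Limma-trend on log2(TPM + 1) gave 8 lower at stage I day 8, 3 higher at stage I day 24, 23 with a higher LB change and 5 lower in BACL LB GPiPSCs. With only the groups compared in the fit, 15 were higher and 16 lower at stage II day 8, 3 were higher in XR GPiPSCs and 3 in both GPiPSCs, 4 had a higher and 0 a lower LB change, 8 were lower in BACL LB GPiPSCs and 8 lower in BACL-CHIR99021. In that fit, 5443 of all tested models were higher and 5166 lower in BACL-CHIR99021, against 2010 and 763 in the main fit. For BACL LB GPiPSCs these were 617 and 1073, against 309 and 1327. For a higher and a lower LB change they were 40 and 43, against 957 and 532. The cause of these shifts was not tested. Other limits of the rule gave 196 members at 1/2 and 54 at 1/4 of the lower control, 112 at 5 CPM and 64 at 20 CPM. TMM-scaled CPM gave 115 and TPM 102, of which 90 and 67 were among the 90.

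Leaving out 1 library at a time gave ranges of 2 to 5 members lower at stage I day 8 than in PF, 15 to 18 higher and 16 to 27 lower at stage II day 8 than at stage I day 24, 1 to 4 higher in GPiPSCs than at stage II day 8, 4 to 8 higher in XR GPiPSCs than in XR PF, 10 to 27 with a higher and 0 to 2 with a lower LB change, 5 to 17 lower in BACL LB GPiPSCs than in LB GPiPSCs and 0 to 3 lower in BACL-CHIR99021 than in BACL control. Such a fit assumes that a lone library varies like the other groups. Without scaling factors the all-model median of the log2 fold change moved by more than 0.1 in several comparisons, from 0.00 to -0.38 for stage I day 8 against PF and from -0.08 to 0.73 for GPiPSCs against stage II day 8, while the members' medians were 2.45 and -2.85.

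The replicate numbers were not treated as pairs in the main fit. Deviations of replicate 1 from replicate 2 correlated over 0.1 in 7 of 66 pairs of groups and below -0.1 in 10. The correlations ran from -0.714 (XR PF with stage I day 24) to 0.558 (stage I day 8 with stage I day 24). Between some of the groups compared, the deviations were therefore related, and the cause was not tested. With the replicate block, 69 members were higher at stage I day 8 than in PF, 66 lower at stage I day 24 and 41 higher in BACL-CHIR99021, and no count left 1.5 times its value. Levels near 0.3 CPM rest on about 3 counts and cannot be ranked.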
